A study of Mus musculus with 44 samples.

Results

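The 7 genes described here encode acute phase and plasma carrier proteins of the liver and were examined for peaks of N6-methyladenosine (m6A), the most common internal mark of messenger RNA. They were Crp, Hp, Cp, Mbl1, Trf, Ttr and Mug1, chosen by name with earlier results of these data known. A peak was assigned to a gene when it carried the gene's Ensembl identifier or lay within the gene's mm10 span. All 7 genes had at least 1 peak, out of 1420 loci with a peak in any of 8 deposited lists, and 156 of 17573 peaks belonged to them. The livers came from male C57Bl/6J mice, an inbred strain, and every group including the controls ate a high-fat diet with 42% of energy from fat. At week 2 of 12 the mice were given 1 oral exposure to Aroclor1260, to PCB126 or to Aroclor1260+PCB126, called the combination here, and the controls received vehicle. Each treatment had 5 m6A immunoprecipitates (m6A IP), 5 input libraries and 1 library from a pooled precipitation with control IgG, 44 libraries in all. Peaks were called by the authors for a whole treatment, once with input as reference (the input lists) and once with IgG (the IgG lists).

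Aroclor1260 is a commercial mixture of polychlorinated biphenyls, whereas PCB126 is 1 of the dioxin-like congeners. The acute phase response is the change in plasma protein synthesis by hepatocytes that follows injury or infection, driven mainly by interleukin-6 and interleukin-1 through STAT3, C/EBP and NF-kB factors. Positive acute phase proteins such as haptoglobin rise in it, while carriers such as transthyretin usually fall. In mice, unlike humans, C-reactive protein is only a minor acute phase reactant. In MeRIP, RNA fragments bound by an antibody against m6A are sequenced, and a peak is a stretch where they exceed the reference.

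The lists differed in length, and the part of this in how often a gene was found was not tested. Against input there were 506 peaks after Aroclor1260, 2178 after PCB126, 2284 after the combination and 620 in controls. Against IgG there were 2082 peaks after Aroclor1260, 4129 after PCB126, 3683 after the combination and 2091 in controls. The read depth behind the lists is unknown, and with 1 list per treatment the spread between animals could not be measured, so no comparison below has a replicate error or a p-value. Fold enrichment is the authors' own ratio of m6A IP over reference for each peak. It ranks peaks within a list, and values of different lists are set side by side without a test, so their order between treatments is a description only. Between 3.73% and 9.09% of the peaks of a list lay on the minus strand, where Hp and Trf are transcribed, and the part of this imbalance in their results was not tested. Of 10 hepatocyte markers, 2, 3 and 5 had an input peak after Aroclor1260, PCB126 and the combination, and 4 had one in controls, with Apoa1 and Apoe in all 8 lists. Among 10 macrophage markers only Cd5l had a peak, in the combination input list at 1.96-fold and in the Aroclor1260, combination and control IgG lists at 2.5-fold, 2.97-fold and 2.2-fold. Of 8 endothelial, 7 stellate cell and 5 cholangiocyte markers, 2 (Eng and Cdh5), 1 (Dcn) and 1 (Spp1) had a peak in any list. None of 6 lymphocyte markers had one in any list. A peak depends on abundance as well as on methylation, so these counts are no measure of cell make-up, and in whole liver fewer cells of a type and less RNA per cell cannot be told apart.

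Crp, Hp and Cp carried a peak in all 8 lists, Mbl1 in 7, Mug1 in 5, Trf in 4 and Ttr in 2. The first 4 genes were marked in control livers with either reference, and the other 3 were found only in exposed livers. The count of marked genes in the input lists was 4 after Aroclor1260 (Crp, Hp, Cp and Mbl1), 4 after PCB126 (Crp, Hp, Cp and Mug1), 7 after the combination and 4 in controls (Crp, Hp, Cp and Mbl1). Of all 1420 loci, 16.1%, 48.5% and 50.6% had a peak in the Aroclor1260, PCB126 and combination input lists, and 18.0% in the control input list. The 4 genes of the Aroclor1260 and control lists thus stood beside a far smaller background than the 4 genes of the PCB126 list. Against IgG, 6 genes were marked after Aroclor1260, 6 after PCB126, 7 after the combination and 4 in controls, beside 42.3%, 77.3% and 70.0% of loci in the 3 exposed lists and 42.0% in the control list. Ttr was the gene missing from the Aroclor1260 and PCB126 IgG lists.

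Gained genes were those marked in an exposed list but not in the control list, which all 3 comparisons share. Against input, Aroclor1260 gained 0 of the 7 genes, with 4.58% of loci gained. PCB126 gained 1, Mug1, beside 31.8% of loci, and the combination gained 3, Trf, Ttr and Mug1, beside 33.8% of loci. When the call had to hold with both references, the same 0, 1 and 3 genes were gained after Aroclor1260, PCB126 and the combination, beside 0.986%, 15.1% and 14.2% of loci. With IgG alone as reference, Aroclor1260 and PCB126 each gained 2, Trf and Mug1. When every list was reduced to its 506 peaks of lowest false discovery rate, the combination had 4 of the 7 genes, Crp, Hp, Ttr and Mug1. No share of all loci is given for gains with IgG alone or for lists of 506 peaks, so these counts have no background. Trf and Ttr had an input peak in the combination and in no other treatment, as did 12.8% of loci. Ttr alone met that condition with both references, as did 2.89% of loci. All Ttr peaks were below 2-fold, and with a fold of at least 2 required the combination gained only Trf and Mug1, and PCB126 gained 0. The share of all loci at that fold is not given either. The percentages are of all 1420 loci, whereas each count of gained genes holds at most 3 of the 7.

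PCB126 lost 1 gene, Mbl1, against input, beside 1.27% of loci, whereas Aroclor1260 and the combination lost 0, beside 6.41% and 1.2%. Mbl1 did have peaks in the PCB126 IgG list, so with both references 0 of the 7 genes were lost in any exposure, beside 1.76% of loci for Aroclor1260, 0.141% for PCB126 and 0.211% for the combination.

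**Figure D1:**
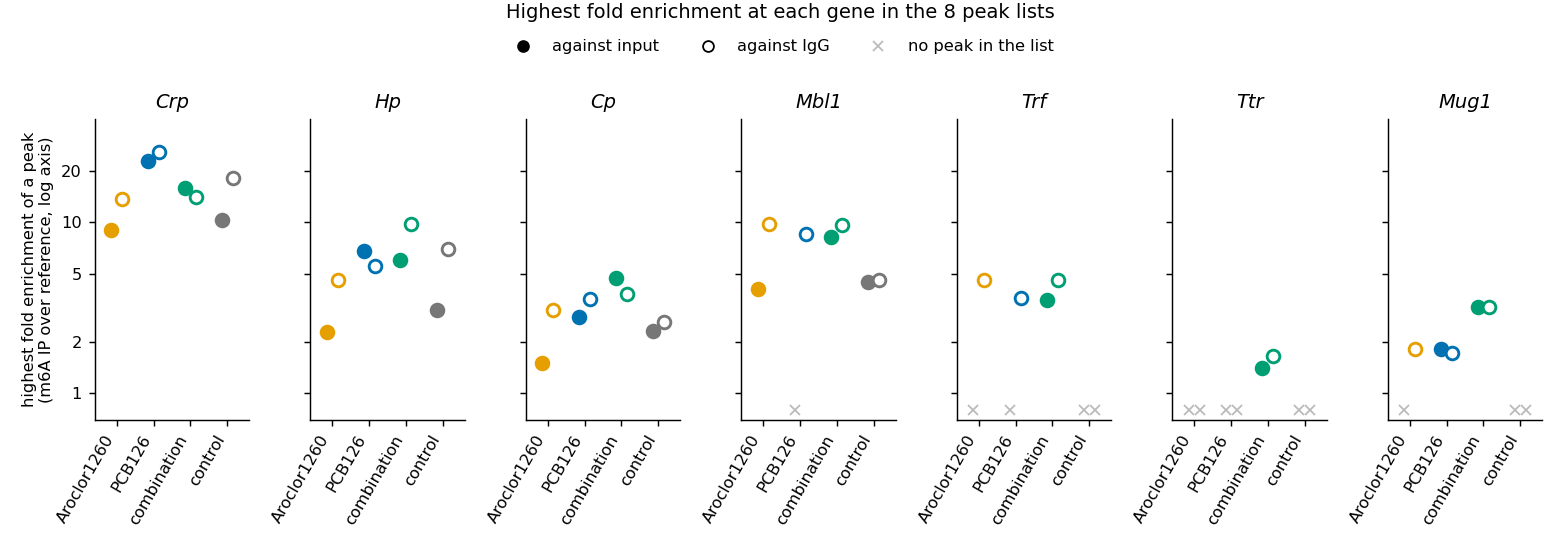
Highest fold enrichment of a peak (m6A IP over reference, log axis) at each of the 7 genes, with 1 panel per gene and the treatments along the horizontal axis. Filled points are input lists, open points IgG lists and crosses lists with no peak. Crp lies above the other genes in every list, from 8.96 to 25.7, and Ttr has points in the combination only, at 1.4 and 1.65.

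The pattern recognition genes were Crp and Mbl1. Crp encodes C-reactive protein, a pentraxin that binds phosphocholine on microbes and damaged cells, and spans 1911 bases on the plus strand at chr1:172698056-172699966. Its highest fold against input was 8.96 after Aroclor1260, 22.8 after PCB126, 15.8 after the combination and 10.3 in controls. Against IgG the values were 13.7 after Aroclor1260, 25.7 after PCB126, 14.1 after the combination and 18.1 in controls. PCB126 gave the highest value with either reference, while the combination was above control against input and below it against IgG. In each list Crp had the highest fold of the 7 genes, and it exceeded 88.2%, 97.5% and 95.4% of the loci in the Aroclor1260, PCB126 and combination input lists and 91.4% in the control list. Among the 141 loci found in all 8 lists it ranked 20, 12 and 21 by input fold after Aroclor1260, PCB126 and the combination, and 19 in controls. By IgG fold it ranked 26, 23 and 51 after the exposures and 15 in controls. The higher PCB126 fold against IgG thus came without a higher rank than in controls.

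The Crp peak occupied the same place in every treatment. All 4 input lists gave chr1:172698105-172699565, made of 2 exonic blocks that together held 1248 bases. The first block of 96 bases began 49 bases into the gene, and the 1152-base block after it ended 401 bases before the gene's 3′ end. In the Aroclor1260 and control IgG lists the peak ended at 172699515, leaving 1198 exonic bases in common to all 8 lists. A smaller peak downstream, starting at position 172699665, was called in the control input list at 1.35-fold. It was also called in the IgG lists of Aroclor1260 at 1.23-fold, the combination at 2.17-fold and controls at 1.97-fold, and in neither PCB126 list. The peaks of Crp thus cover most of the gene and do not resolve single methylated sites.

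Mbl1 encodes mannose-binding lectin A, which binds microbial sugars and starts the lectin pathway of complement. It lies at chr14:41151456-41163904 on the plus strand. The input lists held 3 Mbl1 peaks after Aroclor1260 with a highest fold of 4.08, none after PCB126, 4 after the combination with 8.18, and 4 in controls with 4.5. The IgG lists held 2 peaks after Aroclor1260 with a highest fold of 9.8, 4 after PCB126 with 8.5, 1 after the combination with 9.6, and 4 in controls with 4.6. The 3 exposed IgG values were above the control one, and the number of peaks did not follow the fold. PCB126 had no Mbl1 peak in its input list and the most of any exposure in its IgG list.

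One exonic stretch of Mbl1, the 443 bases of chr14:41158522-41158964, was covered in all 7 lists with a peak. It was the strongest peak of the gene in each of them. Of the peaks that followed, the one from 41159062 reached 5.96-fold in the PCB126 IgG list, against 1.68-fold in the control IgG list, and was in no other IgG list. The next, ending at 41159552 in each IgG list that held it, reached 4.47-fold after Aroclor1260, 8.0-fold after PCB126 and 4.54-fold in controls. A weak 2-block peak from 41151556 to 41153718 reached 1.39-fold after Aroclor1260, 2.55-fold after the combination and 1.58-fold in controls against input. That 2-block peak was also called against IgG after PCB126 at 2.88-fold and in controls at 1.67-fold. No Mbl1 peak reached the last 4352 bases of the RefSeq span. Its relative Mbl2, which encodes mannose-binding lectin C, had an input peak after the combination at 2.83-fold and in no other treatment. Against IgG, Mbl2 had peaks at 3.88-fold after Aroclor1260, 3.3-fold after PCB126, 2.66-fold after the combination and 3.64-fold in controls.

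Hp, Cp and Trf encode proteins that handle haem, copper and iron. Hp encodes haptoglobin, which captures haemoglobin set free from red cells, and lies on the minus strand at chr8:109575128-109579172. The highest Hp fold against input was 2.3 after Aroclor1260, 6.79 after PCB126, 6.0 after the combination and 3.09 in controls. Against IgG it was 4.6 after Aroclor1260, 5.55 after PCB126, 9.8 after the combination and 7.0 in controls. The order of treatments changed with the reference. PCB126 and the combination were above control against input, whereas only the combination was above control against IgG, and Aroclor1260 was the lowest with both. Among the 141 loci found in all 8 lists, Hp ranked 112, 79 and 82 by input fold after Aroclor1260, PCB126 and the combination, and 98 in controls. By IgG fold Hp ranked 107, 117 and 73 after the exposures and 68 in controls.

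The Hp peaks gathered at the 3′ end of the gene. The exonic stretches chr8:109575566-109575712 and chr8:109575225-109575420, were covered in all 8 lists and lay 438 and 97 bases from the 3′ end. After the combination the input list joined them in 1 peak of 827 bases from 109575177 to 109576003, where the control input list had 2 peaks of 196 and 244 bases. Peaks farther upstream appeared in exposed lists and in neither control list. After PCB126 a 3-block peak from 109576707 to 109577548 was called at 2.0-fold against input and 3.2-fold against IgG. The combination input list had a 2-block peak within the same span at 2.67-fold, and the Aroclor1260 IgG list one from 109575955 to 109576707 at 2.4-fold. Exonic bases under Hp peaks came to 440 after Aroclor1260, 927 after PCB126, 925 after the combination and 440 in controls against input. Against IgG they came to 684 after Aroclor1260, 927 after PCB126, 731 after the combination and 635 in controls, so the treatments lay closer together.

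**Figure D2:**
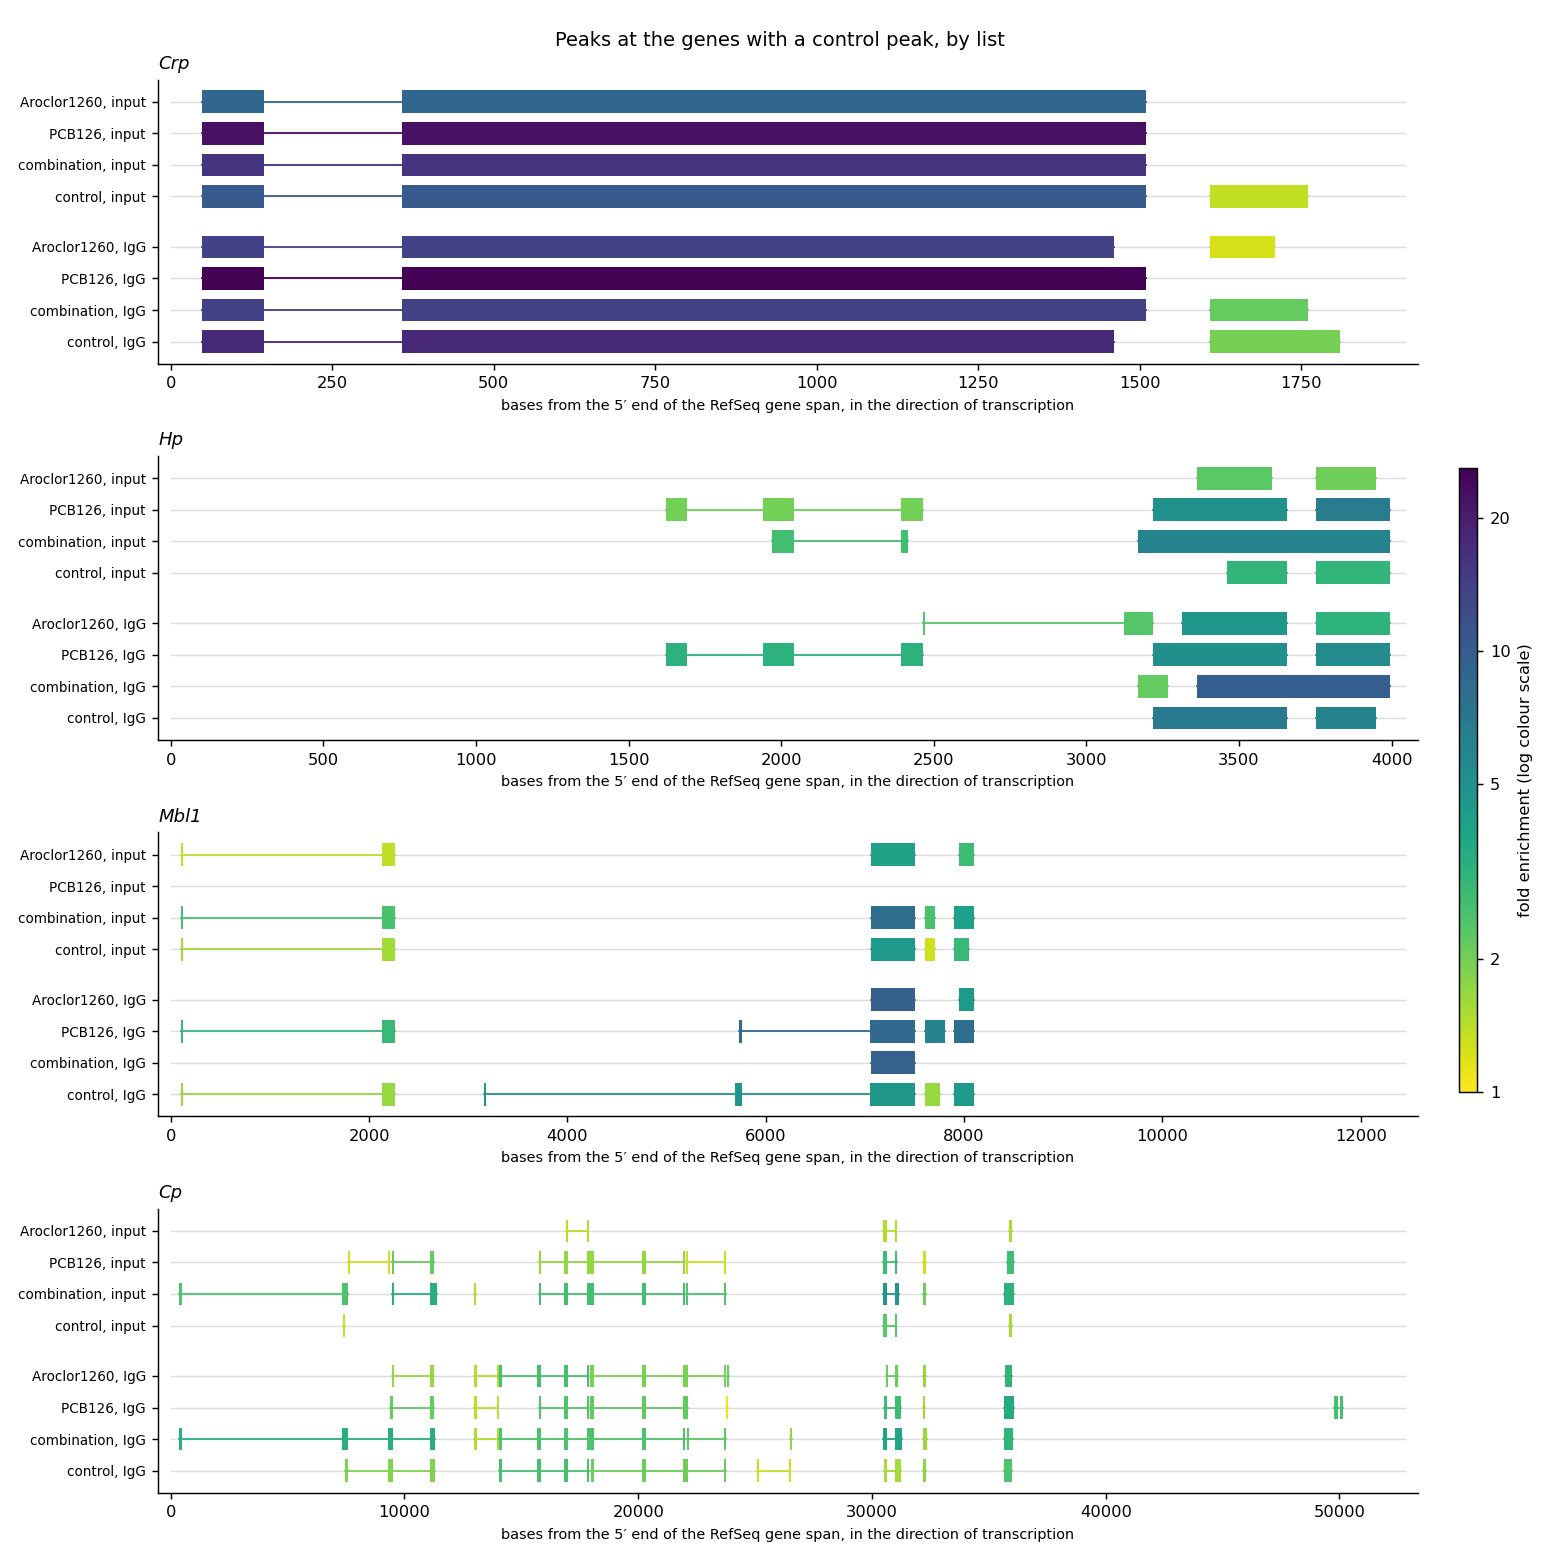
Peaks at the 4 genes with a control peak, drawn as exonic blocks joined by lines across the gaps between them, in bases from the 5′ end of the RefSeq span. Each row is 1 list and the colour gives fold enrichment on a log scale. Crp has the same 2 blocks in the 4 input lists, Hp peaks gather near the 3′ end, Mbl1 is empty in the PCB126 input list, and Cp has 7 and 8 peaks after PCB126 and the combination against input, with 3 in controls.

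Cp encodes ceruloplasmin, a copper-bearing ferroxidase that loads iron onto transferrin, and spans 52818 bases at chr3:19956933-20009750. Against input it had 3 peaks after Aroclor1260, 7 after PCB126, 8 after the combination and 3 in controls. These covered 450 exonic bases after Aroclor1260, 1850 after PCB126, 2598 after the combination and 450 in controls. The PCB126 and combination lists held more Cp peaks than the control list, and they were also the longest input lists. The highest folds were low, at 1.5 after Aroclor1260, 2.78 after PCB126, 4.74 after the combination and 2.32 in controls. Cp therefore ranked 134, 129 and 101 among the 141 loci of all 8 lists after Aroclor1260, PCB126 and the combination, and 121 in controls.

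Against IgG the treatments were closer. Cp had 8 peaks after Aroclor1260, 10 after PCB126, 8 after the combination and 7 in controls, over 2049 exonic bases after Aroclor1260, 2498 after PCB126, 3145 after the combination and 2546 in controls. The highest folds against IgG were 3.09 after Aroclor1260, 3.55 after PCB126, 3.8 after the combination and 2.6 in controls. The gap in peak number between PCB126 or the combination and control was thus smaller with IgG as reference than with input. By number of peaks Cp ranked 38 of 229 loci after Aroclor1260, 45 of 688 after PCB126, 34 of 718 after the combination and 56 of 255 in controls against input.

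The exonic stretches of Cp covered in all 8 lists were chr3:19987549-19987575, chr3:19987933-19987956 and chr3:19992780-19992929. The stretches cover 27, 24 and 150 bases, and the last of them ends 16821 bases before the 3′ end of the RefSeq span. Upstream exonic blocks were covered in all 4 IgG lists, whereas among the input lists the PCB126 and combination lists covered the most of them. A 5-block peak of 699 exonic bases from 19972669 to 19978869 was called against input at 1.7-fold after PCB126 and at 2.66-fold after the combination. The Aroclor1260 input list had a 2-block peak of 100 bases inside that span at 1.42-fold, and the control input list had none there, its 1 upstream peak being 100 bases from 19964303 at 1.33-fold. The control IgG list did cover the region, with 2.6-fold and 2.07-fold peaks from 19970989 to 19974820 and from 19974920 to 19980686.

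Trf encodes transferrin, the iron carrier of plasma, and lies on the minus strand at chr9:103208876-103230286. Among the input lists only the combination list held Trf peaks, 5 of them with folds of 1.67 to 3.5. Against IgG there were 4 Trf peaks after Aroclor1260 with a highest fold of 4.6, 10 after PCB126 with 3.6, 6 after the combination with 4.6, and none in controls. No control list thus held a Trf peak, while every exposure did with IgG and only the combination with both references. The IgG peaks were divided equally between the identifiers ENSMUSG00000032554 and ENSMUSG00000090639, which overlap there. Both had 2 peaks in the Aroclor1260 list, 5 in the PCB126 list and 3 in the combination list, so the IgG count includes stretches called under both identifiers, and the reads of the overlapping models cannot be told apart. The 5 combination input peaks all carried ENSMUSG00000032554.

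A stretch of 100 bases at chr9:103210578-103210677, 1702 bases from the 3′ end, was covered in all 4 lists with a Trf peak. It held the strongest Trf peak of the combination input list, at 3.5-fold, and of the Aroclor1260 IgG list, at 4.6-fold. A peak 38 bases from the 3′ end, chr9:103208914-103209013, was called only in the combination input list, at 2.53-fold.

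**Figure D3:**
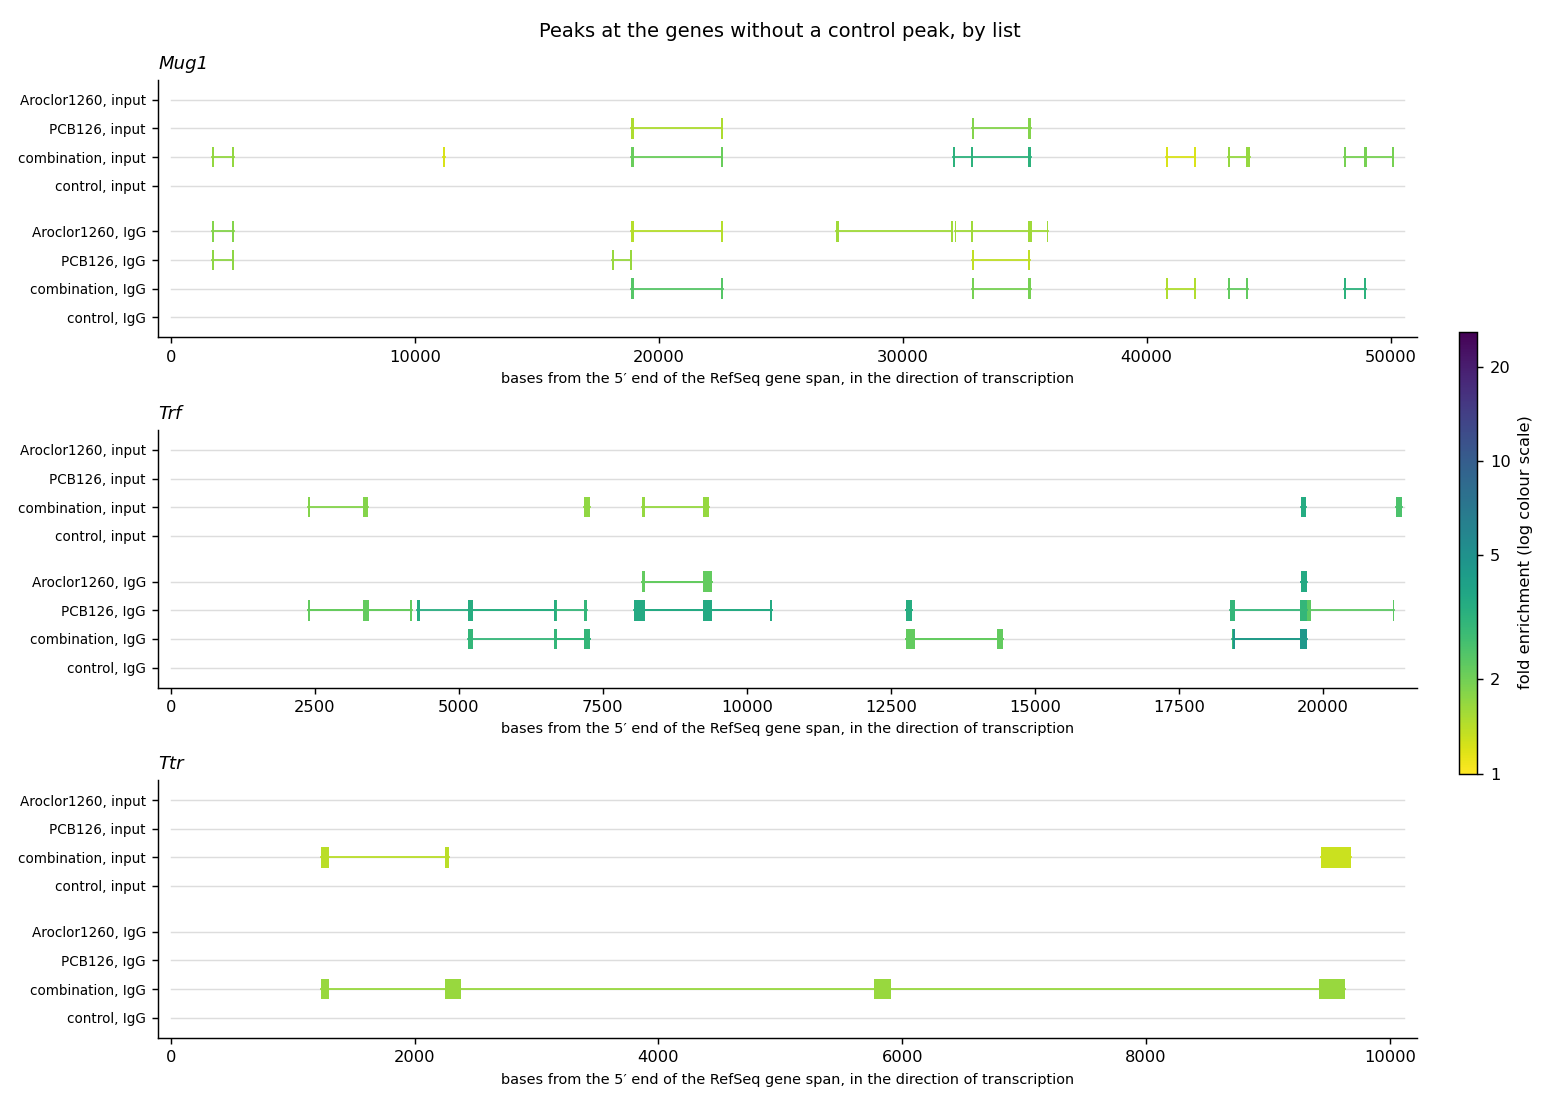
Peaks at the 3 genes without a control peak, drawn as exonic blocks in bases from the 5′ end of the RefSeq span, with 1 row per list and colour for fold enrichment on a log scale. Mug1 has 2 peaks after PCB126 and 7 after the combination against input, Trf has input peaks in the combination only, and Ttr is empty outside the combination lists. Both control rows are empty for all 3 genes.

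Ttr and Mug1 encode a hormone carrier and a proteinase inhibitor. Ttr encodes transthyretin, which carries thyroxine and retinol-binding protein and is known to bind hydroxylated metabolites of polychlorinated biphenyls. Only the combination lists held Ttr peaks. The input list had 2, a 2-block peak of 98 exonic bases from chr18:20665445-20666490 at 1.4-fold and a peak of 245 bases at chr18:20673642-20673886 at 1.29-fold. The IgG list had 1 peak at 1.65-fold, which joined 4 blocks of 537 exonic bases from 20665445 to 20673837. All 3 carried a false discovery rate that the authors' lists write as 0, although their folds were among the lowest. Ttr exceeded only 1.25% of the loci in the combination input list and 1.61% in the combination IgG list by its highest fold.

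Mug1 encodes murinoglobulin 1, a rodent plasma proteinase inhibitor of the alpha-2-macroglobulin family, and lies at chr6:121838496-121889057. Against input it had 2 peaks after PCB126 with a highest fold of 1.82 and 7 after the combination with 3.21, and none after Aroclor1260 or in controls. Against IgG it had 4 peaks after Aroclor1260 with a highest fold of 1.83, 3 after PCB126 with 1.73, 5 after the combination with 3.2, and none in controls. The combination had the most peaks and the highest fold with both references, and the control lists were empty with both. Mug1 stood low among the loci of its lists, above 6.4% after PCB126 and 34.4% after the combination against input.

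Both Mug1 peaks of the PCB126 input list recurred in the combination input list. They lay at 121857377 to 121861077 and at 121871329 to 121873756, with folds of 1.5 and 1.82 after PCB126, and in the combination list the downstream span fell within a 3-block peak from 121870576 to 121873756 at 3.21-fold. The 58 bases of chr6:121871329-121871386 and the 93 bases of chr6:121873615-121873707 were covered in all 5 lists with a Mug1 peak. Murinoglobulin genes share much of their sequence, so the assignment of reads to Mug1 is uncertain, and its relative Mug2 had no peak in any list.

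**Figure D4:**
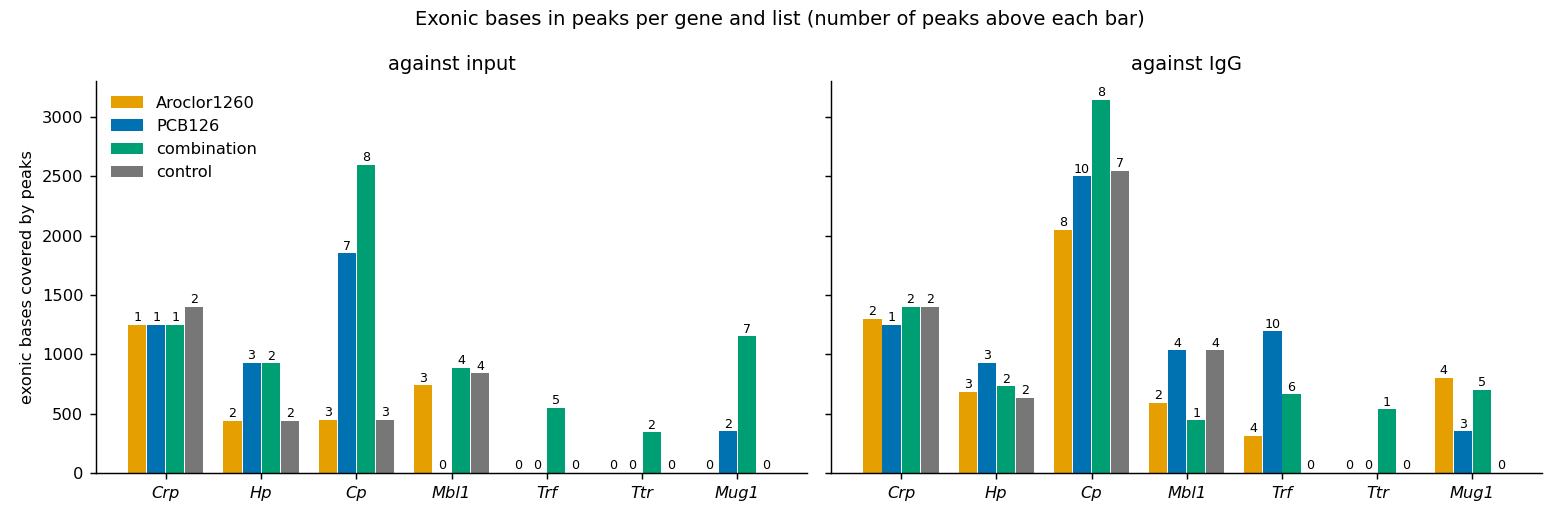
Exonic bases covered by peaks at each gene (vertical axis, from 0) in the input lists and the IgG lists, with the number of peaks above each bar. Cp shows the widest contrast among input lists, with 450 bases after Aroclor1260, 1850 after PCB126, 2598 after the combination and 450 in controls, and the IgG panel has Cp bars of 2049 to 3145 bases in every treatment.

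Over the 7 genes together, the input lists held 9 peaks after Aroclor1260, 13 after PCB126, 29 after the combination and 11 in controls. They covered 2877, 4375 and 7702 exonic bases after Aroclor1260, PCB126 and the combination, and 3127 in controls. As a share of the list, the 7 genes held 1.78%, 0.597% and 1.27% of the peaks after Aroclor1260, PCB126 and the combination, and 1.77% in controls. The larger number of peaks after PCB126 and the combination thus came with longer lists, and the share of the list was not above that in controls. Against IgG the genes held 23 peaks after Aroclor1260, 31 after PCB126, 25 after the combination and 15 in controls, which made up 1.1%, 0.751% and 0.679% of the exposed lists and 0.717% of the control list. Of the exposed peaks, 2, 5 and 3 carried ENSMUSG00000090639, and each overlapped, at least in part, a Trf peak called under ENSMUSG00000032554. The control list had no such peaks, so these IgG counts are raised in the exposed lists only.

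The share of peaks found in both an exposed and the control list differed between the references. The lists also differed in length, and the part of this in the shares was not tested. Overlap was measured on whole peak spans, with the gaps between blocks included. With an overlap of at least 1 base and input as reference, 8 of 9 Aroclor1260 peaks lay on a control peak, 88.9% (Wilson 95% interval 56.5% to 98.0%). The share was 38.5% for PCB126, 5 of 13 peaks (17.7% to 64.5%), and 31.0% for the combination, 9 of 29 peaks (17.3% to 49.2%). Over all peaks of these lists the shares were 63.6%, 20.7% and 20.4% after Aroclor1260, PCB126 and the combination, so the same order held for the lists as a whole. Against IgG, 56.5% of Aroclor1260, 45.2% of PCB126 and 48.0% of combination peaks at the 7 genes lay on a control peak, beside 58.9%, 35.8% and 40.3% of all peaks. The exposed IgG peaks, here and in the counts that follow, include the Trf stretches called under both identifiers.

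In the other direction, 8, 5 and 10 of the 11 control input peaks were found after Aroclor1260, PCB126 and the combination, beside 310, 547 and 542 of all 620 control input peaks. Against IgG, 12, 13 and 12 of the 15 control peaks were found, beside 56.8%, 79.4% and 74.6% of all. At these genes PCB126 thus held the fewest of the control peaks with input and, narrowly, the most with IgG. Its input list held none of the 4 Mbl1 peaks of controls. Over all peaks PCB126 held the most control peaks with both references. When a reciprocal overlap of 50% was required, the combination held 6 of 11 control peaks against input and 6 of 15 against IgG. Gaps between blocks count in the spans compared, so peaks that share most of their exonic bases can miss this limit. At Mbl1 the control IgG peak of 541 exonic bases spanned 4351, and the 443-base combination peak inside it was not counted as shared. Peaks of 1 gene are not independent, and the intervals cover counting error only. Within a treatment, 8 of 9 Aroclor1260, 13 of 13 PCB126, 20 of 29 combination and 11 of 11 control input peaks overlapped an IgG peak, beside 88.3%, 87.9% and 81.9% of all input peaks after the exposures and 85.0% in controls. Conversely, 8 of 23 Aroclor1260, 12 of 31 PCB126, 21 of 25 combination and 11 of 15 control IgG peaks overlapped an input peak, beside 21.0%, 47.0% and 52.9% of all IgG peaks after the exposures and 24.4% in controls.

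Peaks joined over introns were frequent at these genes. Peaks with 2 or more blocks made up 44.4%, 69.2% and 58.6% of their input peaks after Aroclor1260, PCB126 and the combination, and 27.3% in controls. Over the whole lists the shares were 19.4%, 26.4% and 27.5% after Aroclor1260, PCB126 and the combination, and 17.9% in controls. Against IgG they were 13 of 23 peaks after Aroclor1260, 20 of 31 after PCB126, 18 of 25 after the combination and 8 of 15 in controls, beside 31.8%, 33.7% and 30.4% of the exposed lists and 31.7% of the control list. The gap between exposed and control lists was thus smaller with IgG than with input. Over all 8 lists, 33 of 54 peaks at Cp, 18 of 25 at Trf and 20 of 21 at Mug1 had 2 or more blocks, and at Hp 4 of 19 did. The Trf peaks include stretches called under both of its identifiers.

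Related genes were counted in the same way, from lists chosen for their function. Of the 1420 loci, 16.1%, 48.5% and 50.6% had an input peak after Aroclor1260, PCB126 and the combination, and 18.0% in controls. IgG peaks were at 42.3%, 77.3% and 70.0% of loci after the exposures, and at 42.0% in controls. Those loci all had a peak in some list. Of the related genes, 16 of 30, 17 of 27, 12 of 20 and 17 of 21 had none, so the bases differ. Few peaks of any list lay on the minus strand, and the part of this in the absence of a related gene was not tested. Of 30 other acute phase genes, 1, 4 and 7 had an input peak after Aroclor1260, PCB126 and the combination, and 1 had one in controls. Against IgG the counts were 6, 11 and 11 after Aroclor1260, PCB126 and the combination, and 10 in controls. The 1 gene of that list found in all 8 was Fga, the fibrinogen alpha chain, with input folds of 12.6 after Aroclor1260, 24.2 after PCB126, 25.0 after the combination and 11.0 in controls. Serpina3n and Serpina3m, serine proteinase inhibitors, had input peaks in the combination only, at 5.11-fold and 4.8-fold, yet both had control IgG peaks, at 2.66-fold and 2.24-fold. Of the murine serum amyloid A genes, Saa2 had a peak in the PCB126 IgG list only, at 3.4-fold, and Saa1, Saa3 and Saa4 had none. Orm1, which encodes the plasma glycoprotein orosomucoid, had IgG peaks of 2.36-fold after Aroclor1260, 2.17-fold after the combination and 1.73-fold in controls. Apcs, Hpx and Lcn2 had no peak in the lists analysed here.

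Among 27 other carriers and plasma proteins, 2, 1 and 4 had an input peak after Aroclor1260, PCB126 and the combination, and 1 in controls, against 8, 5 and 4 with IgG after the exposures and 6 in controls. Kng1, the kininogen precursor of bradykinin, was found in all 8 lists, with input folds of 3.18 after Aroclor1260, 4.02 after PCB126, 6.88 after the combination and 3.53 in controls. Rbp4, which encodes the retinol-binding protein that travels on transthyretin, had an input peak after the combination only, at 2.75-fold. With IgG it had peaks of 4.2-fold after PCB126 and 2.0-fold after the combination and none after Aroclor1260 or in controls.

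Of 20 genes of acute phase signalling, 2, 8 and 7 had an input peak after Aroclor1260, PCB126 and the combination, and 4 in controls, with IgG counts of 4, 8 and 8 after the exposures and 6 in controls. Cebpa and Cebpb, transcription factors that drive many acute phase promoters, were present in all 8 lists. Input folds at Cebpa were 2.54 after Aroclor1260, 9.6 after PCB126, 12.3 after the combination and 5.08 in controls, and IgG folds were 7.17 after Aroclor1260, 18.2 after PCB126, 15.4 after the combination and 10.2 in controls. Peaks at Cebpb came from identifiers of both strands and are not assigned to the gene alone. Il6st, the shared receptor chain gp130 of interleukin-6, had input folds of 11.0 after PCB126 and 8.5 after the combination, and no input peak after Aroclor1260 or in controls. With IgG it had peaks in all 4 treatments, at 5.8-fold after Aroclor1260, 20.9-fold after PCB126, 10.3-fold after the combination and 9.2-fold in controls. Stat3 and Socs3 had no peak in any list, and the part of the strand imbalance in this was not tested.

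Of 21 genes for iron handling, receptors and the proteases that act with mannose-binding lectin, 0, 1 and 1 had an input peak after Aroclor1260, PCB126 and the combination, and 0 in controls, with IgG counts of 1, 2 and 4 after the exposures and 1 in controls. The control IgG peak was at Masp2, 1 of those proteases, at 7.7-fold, so no iron gene or receptor had a control peak. The 1 gene with an input peak was Hjv, which encodes haemojuvelin, a regulator of hepcidin, at 4.57-fold after PCB126 and 4.06-fold after the combination. Against IgG, Hjv had peaks at 3.6-fold after Aroclor1260, 28.4-fold after PCB126 and 7.0-fold after the combination, and none in controls. The transferrin receptor genes Tfrc and Tfr2 and the haptoglobin receptor gene Cd163 had no peak in any list.

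**Figure D5:**
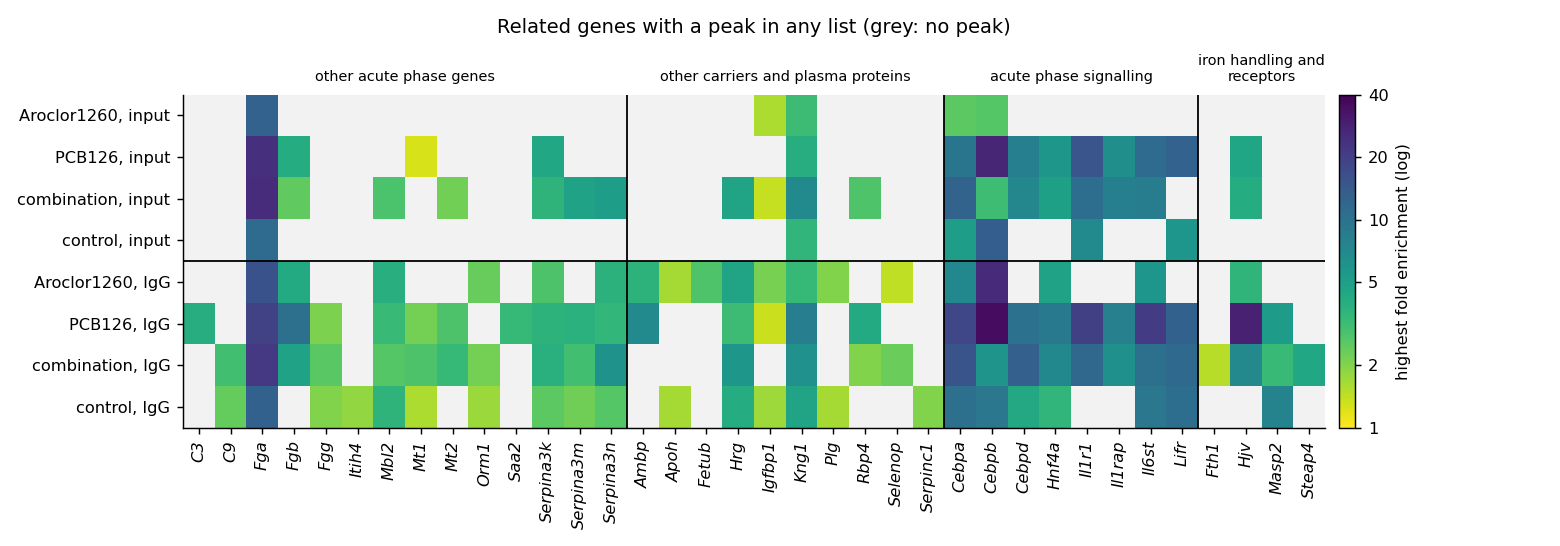
Highest fold enrichment (log colour scale) of each related gene with a peak in any list, with lists as rows, input above IgG, and genes as columns grouped by function, with the lectin pathway protease gene Masp2 in the last group. Grey marks a list without a peak. Fga, Kng1, Cebpa and Cebpb are coloured in every row, and most other columns are grey in the Aroclor1260 and control input rows.

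The loci whose pattern was most like that of each gene were found by the percentile of the highest fold within each of the 8 lists, with 0 where no peak was called. Crp lay closest to Rest and Arf6, at mean differences of 1.74 and 2.61 percentile points over the 8 lists, and Trf to Acsm3 and Gpt2, at 2.95 and 6.32 points. For Hp the nearest loci were Eva1a and Krcc1, at 8.07 and 9.29 points, and for Cp they were Slc27a2 and Upp2, at 5.77 and 7.32 points. Mbl1 had the loosest neighbours, Reep6 and Klf15, at 15.2 and 15.3 points. Ttr lay nearest to Mmd and Edf1, at 0.187 and 0.211 points, with Mmd in 1 list and Edf1 in 2, and Mug1 nearest to Uspl1 and Psmc2, at 2.08 and 2.39 points. Mmd had no input peak, unlike Ttr. A list with a peak at neither locus adds a difference of 0. Distances of genes found in few lists, such as Ttr, are therefore not comparable with those of Mbl1.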

How the data were processed

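Reads were handled with BWA 0.7.17, Trimmomatic, FastQC 0.10.1 and bcl2fastq 2.20.0.422 and the mm10 build, per the submitters' processing notes, which name no order or settings. The titles of the deposited lists name MeTPeak as the peak caller. Its version and annotation were not given in the sources used here. Per the file headers, the authors gave each peak its fold enrichment, the ratio between m6A IP and reference, and the log10 of a false discovery rate. The authors called 1 list per treatment over its 5 animals, so the lists give no replicate values and no read depth.

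From these, peaks were assigned to genes by identifier or by position in RefSeq's GRCm38.p6 gene table, which is of the build of the lists and gives no exons. Coding sequence and untranslated regions were therefore not told apart. Identifiers took the gene that held at least 80% of their exonic peak bases, and 1395 of 1512 were named, in 1420 loci. Coordinates count from 1. Every gene of the set is named in every list, and related genes are named where they had a peak, or as examples without one that were picked after their values were seen. The genes and lists were chosen with earlier results of these data known. Naming was tested on simulated peaks. Alternatives were the IgG reference, a fold of at least 2, a false discovery rate of at most 0.01, 506 peaks per list, peaks inside the span only, plus-strand peaks only and a reciprocal overlap of 50%. Python 3.11.15, pandas 2.3.3, numpy 2.4.6, scipy 1.17.1 and matplotlib 3.10.9 were used. No sequences are shown, because no genome of this build was used.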

Additional observations from a re-analysis of the deposited data

How the results depend on the processing

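The 10 counts of genes with a peak, gained or lost were recomputed under 6 settings, and the 3 shares of exposed peaks found in the control list under a reciprocal overlap, 63 values in all. Of these, 55 stayed within 1.5 times the reported count or, for the shares, within the interval. Every peak of these genes lay within its gene's span, so the 10 counts recomputed with peaks inside the span only could not change. The Aroclor1260 input list holds 506 peaks, so equal list length could not change its count of marked genes. A move from 4 to 6 genes, or from 3 to 2, counts as within 1.5 times. The intervals for the shares rest on 9 to 29 peaks that are not independent. The number 55 is therefore no measure of how firm the results are. With IgG as reference, Aroclor1260 gained 2 genes and PCB126 gained 2 (Trf and Mug1 in both), and PCB126 lost 0. With a fold of at least 2, PCB126 gained 0 genes and Aroclor1260 lost 1 (Cp). When each list was reduced to its 506 peaks of lowest false discovery rate, the combination had 4 genes with a peak (Crp, Hp, Ttr and Mug1), and PCB126 and the combination each lost 2 (Cp and Mbl1). No share of all loci stands beside these changed counts. The cause of these changes was not tested, apart from the smaller number of peaks that the fold minimum and the equal list length leave by construction. The combination gained Trf, Ttr and Mug1 with either reference, Trf and Mug1 at a fold of at least 2, and Ttr and Mug1 at equal list length. No paired analysis was possible because each treatment has 1 peak list over all its animals and no values per replicate, and for the same reason no replicate could be left out. Read depth is unknown, so an absent peak cannot be told apart from one below detection.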
